A study of Mus musculus with 16 samples.

Results

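Genes of lipid uptake, triglyceride synthesis, lipid droplets and lipolysis were followed in neonatal mouse lung and cerebellum after treatment with dexamethasone or vehicle. The 10 genes were chosen by name, as all probe sets annotated to Pparg, Plin2, Plin4, Lpl, Fabp4, Cd36, Angptl4, Dgat2, Pnpla2 or Lipe, and they make up 10 of the 18193 genes measured. They are represented by 20 probe sets, with 7 genes carrying several and 3 a single one. The study held 4 groups of 4 arrays, all from C57BL/6J mice harvested at postnatal day 7: whole lung with dexamethasone, whole lung with vehicle, whole cerebellum with dexamethasone and whole cerebellum with vehicle. Dexamethasone is a synthetic agonist of the glucocorticoid receptor. The submitters call the 4 arrays of a group biological replicates and refer to a publication for the treatment. Dose, schedule and any pooling of animals were not in the labels. Values are log2 RMA values, which are relative within a probe set and cannot be set against another gene's.

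Triglyceride, the storage form of fatty acids, is carried in plasma lipoproteins and kept in cells as droplets. Lipases release fatty acids at the capillary wall, transporters and binding proteins move them into and through the cell, acyltransferases rebuild triglyceride, perilipins coat the droplet and a chain of lipases empties it again. In the lung of newborn rodents, lipofibroblasts of the alveolar septum hold such droplets and are thought to pass lipid to alveolar type 2 cells for surfactant. Most of these genes are also expressed in other cells: Fabp4 and Cd36 in capillary endothelium and macrophages, Lpl and Plin2 in macrophages and cardiac muscle.

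Tissue markers followed the labels. Sftpc, a surfactant protein of alveolar type 2 cells, read 14.60 to 14.74 in dexamethasone lungs and 14.58 to 14.66 in vehicle lungs, but 5.15 to 5.66 in dexamethasone cerebella and 5.03 to 6.03 in vehicle cerebella. Zic1, a transcription factor of granule neurons, read 4.07 to 4.80 in dexamethasone lungs and 3.69 to 4.45 in vehicle lungs, but 13.02 to 13.41 in dexamethasone cerebella and 13.21 to 13.36 in vehicle cerebella. In a whole organ, fewer cells of a type and less RNA per cell cannot be told apart. The dexamethasone lung array B46 stood apart for these genes, with the highest value of its group for 9 of the 10 and Cd36 the exception, so the lung changes of the 10 genes are given with and without it. Control probe sets for Gapdh, whose 3′ end outshines the 5′ end more in degraded RNA, differed between those ends by 0.45 to 0.71 on the log2 scale in dexamethasone lungs and by 0.84 to 1.04 in vehicle lungs. The same measure for actin overlapped, at 0.45 to 0.64 in dexamethasone lungs and 0.61 to 0.67 in vehicle lungs. Their part in the lung results was not tested.

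Plin2, Cd36 and Pnpla2 are the members that rose in treated lung and have a promoter in the RefSeq table, so the 250 bases before their start sites are shown (GRCm38.p6, 5′ to 3′ on the strand of the gene). They are chr4:86670060-86670309 on the minus strand for Plin2, chr5:17835897-17836146 on the minus strand for Cd36 and chr7:141454938-141455187 on the plus strand for Pnpla2. The Cd36 window lies inside the annotated gene, which spans 17781690 to 17888959, and the Plin2 window lies partly inside a gene that ends at 86670217. These start sites of Cd36 and Plin2 are thus not the outermost ones. Capitals mark the hexamer AGGTCA, which many nuclear receptors bind, here read on the other strand.
Plin2: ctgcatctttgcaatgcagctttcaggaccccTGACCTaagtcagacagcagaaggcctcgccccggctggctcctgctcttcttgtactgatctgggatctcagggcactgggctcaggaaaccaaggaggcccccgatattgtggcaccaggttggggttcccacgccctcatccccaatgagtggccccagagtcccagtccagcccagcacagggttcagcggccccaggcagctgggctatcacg
Cd36: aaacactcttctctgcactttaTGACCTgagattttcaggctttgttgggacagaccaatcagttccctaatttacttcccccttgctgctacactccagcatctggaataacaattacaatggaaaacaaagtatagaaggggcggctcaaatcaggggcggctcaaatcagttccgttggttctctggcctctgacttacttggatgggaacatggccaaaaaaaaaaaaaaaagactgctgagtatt
Pnpla2: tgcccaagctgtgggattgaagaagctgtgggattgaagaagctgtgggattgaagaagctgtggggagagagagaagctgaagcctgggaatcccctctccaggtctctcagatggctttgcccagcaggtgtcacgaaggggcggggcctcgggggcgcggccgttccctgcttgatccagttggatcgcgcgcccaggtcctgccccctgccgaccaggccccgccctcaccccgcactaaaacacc
Windows of 300 bases, with 50 more from the start site on, were searched on both strands for 6 of the 10 genes, which have 9 such promoters. The hexamer AGGTCA was in 4 of the 9, those of Plin2 and Cd36 and a pair of Pparg, against 16.3% of 32851 promoters in the table. The hexamer TGTTCT, part of the glucocorticoid response element, was in 0 of the 9 and in 19% of all. The full glucocorticoid response element was in 0 of the 9 and in 0.475% of all, and the direct repeat bound by PPAR with RXR, which holds the hexamer AGGTCA on both sides of a spacer, in 0 of the 9 and in 0.0396%. A match describes these letters only.

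In lung, 6 of the 10 genes rose with dexamethasone and 0 fell, by an adjusted p under 0.05 over all 18193 genes, where 15.7% of all genes were called higher and 15.5% lower. The median log2 change of the 10 was 0.67, against 0.05 over all genes. Fabp4, Pnpla2, Lpl, Dgat2, Cd36 and Plin2 rose, in that order of size, with the treated arrays of each above all vehicle arrays. Groups without overlap were seen for 30.6% of all genes in this comparison. Pparg, Plin4, Angptl4 and Lipe were not called.

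**Figure D1:**
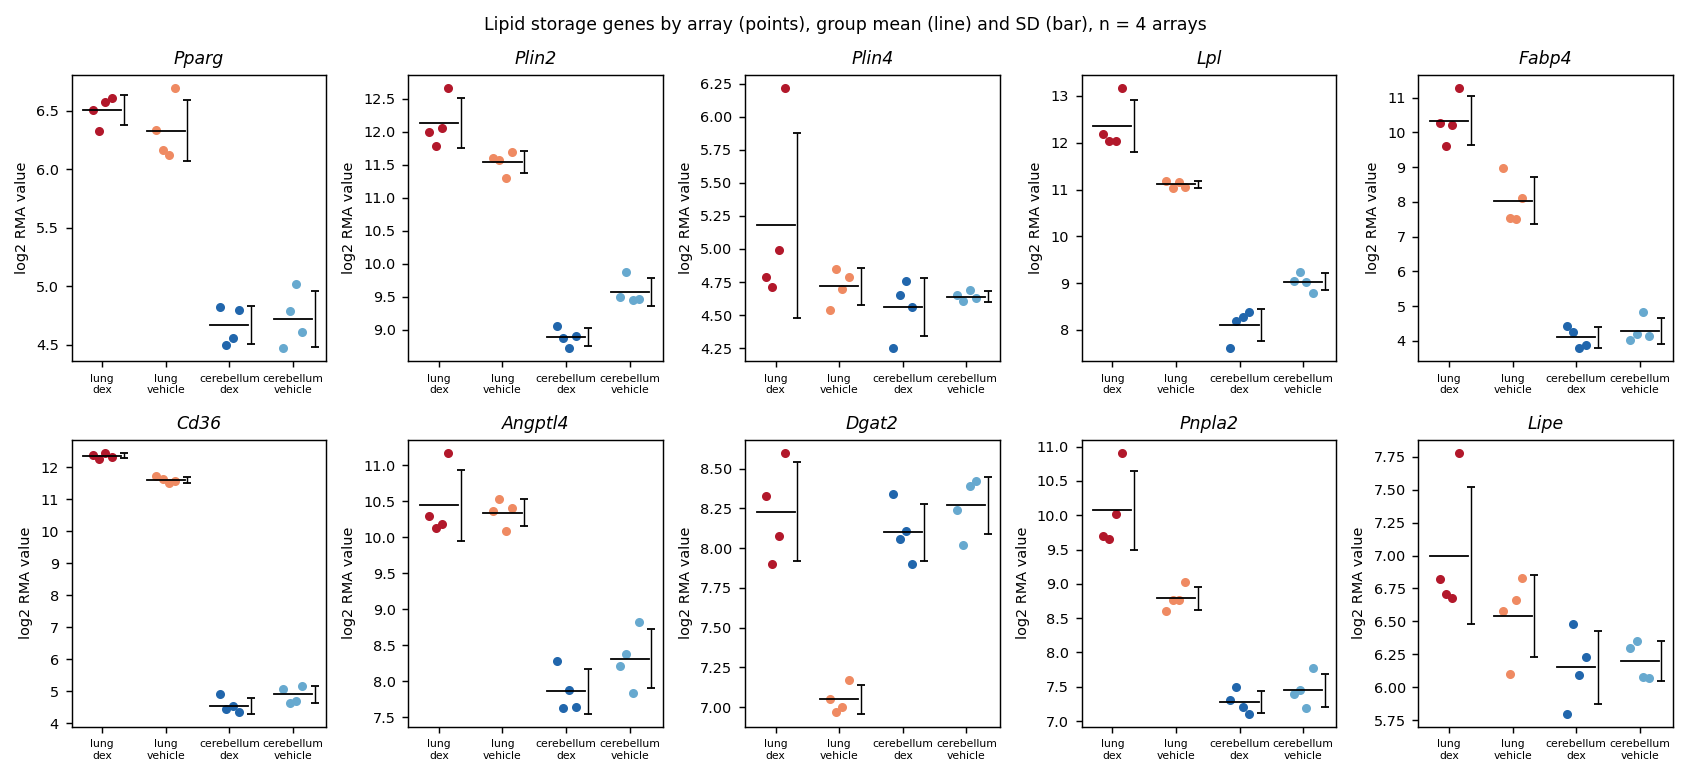
Log2 RMA value (vertical axis) of each of the 10 genes on each array, in lung with dexamethasone, lung with vehicle, cerebellum with dexamethasone and cerebellum with vehicle (points), with the group mean (line) and SD (bar), n = 4. Axes differ between panels and do not start at 0; the 4 treated lung arrays of Dgat2 lie at 7.90 to 8.60, all above the vehicle lungs at 6.97 to 7.17.

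Pparg encodes PPARγ, the fatty acid sensing nuclear receptor that drives adipocyte differentiation. It read 6.51, 6.33, 6.58 and 6.61 in dexamethasone lungs, against 6.34, 6.17, 6.12 and 6.70 in vehicle lungs. The groups overlapped, and the log2 change was 0.18 ± 0.14 (SE, limma adjusted p = 0.378), or 0.14 without B46. In cerebellum it read 4.5 to 4.82 with dexamethasone and 4.47 to 5.02 with vehicle, close to the lower quartile of an array, which was 4.48 to 4.67. In vehicle mice Pparg was 3.05-fold higher in lung, a fold set against this dim level, with a log2 difference of 1.61 ± 0.14 (adjusted p = 2.16e-08). Vehicle lung against vehicle cerebellum called 8 of the 10 genes in either direction, 7 higher and 1 lower in lung, where 57.7% of all genes were called.

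Lpl, lipoprotein lipase, frees fatty acids from circulating triglyceride. It read 12.19, 12.04, 12.03 and 13.18 in dexamethasone lungs, against 11.19, 11.03, 11.16 and 11.05 in vehicle lungs. Every treated lung lay above every vehicle lung, with B46 highest. Lpl rose 2.38-fold (log2 change 1.25 ± 0.22, limma adjusted p = 0.000287) and 1.97-fold without B46. In cerebellum the direction was the opposite: Lpl read 7.61, 8.20, 8.27 and 8.38 with dexamethasone, against 9.05, 9.23, 9.03 and 8.80 with vehicle. It fell 1.89-fold there, with no overlap between the groups (log2 change -0.91 ± 0.22, adjusted p = 0.0201). Both probe sets of Lpl were called higher in lung, at 1.25 and 1.43, while in cerebellum the second had -0.51 ± 0.26 (adjusted p = 0.411).

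Angptl4, a secreted inhibitor of lipoprotein lipase and a PPAR target, read 10.30, 10.13, 10.18 and 11.17 in dexamethasone lungs, against 10.36, 10.53, 10.08 and 10.40 in vehicle lungs. The groups overlapped and the log2 change was 0.10 ± 0.23 (limma adjusted p = 0.786), or -0.14 without B46. A second, dim probe set read 4.80 to 5.48 in dexamethasone lungs and 4.41 to 4.74 in vehicle lungs and was called on its own (log2 change 0.51 ± 0.15, adjusted p = 0.021), so the probe sets disagree. In cerebellum Angptl4 had -0.45 ± 0.23 (adjusted p = 0.353). In vehicle mice it was 4.10-fold higher in lung.

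Cd36, a fatty acid translocase and scavenger receptor, read 12.39, 12.26, 12.45 and 12.33 in dexamethasone lungs, against 11.74, 11.64, 11.52 and 11.56 in vehicle lungs. It rose 1.67-fold (log2 change 0.74 ± 0.13, limma adjusted p = 0.000424) and 1.68-fold without B46. Its 3 probe sets were all called, at 0.67, 0.74 and 1.29, and the largest change was on the dimmest of them, at 9.94 to 10.38 in dexamethasone lungs and 8.73 to 9.15 in vehicle lungs. In vehicle mice Cd36 was called higher in lung than in cerebellum, where it read 4.64 to 5.16, near the lower quartile of an array and not shown to be above background, so no fold is given. In cerebellum the change was -0.34 ± 0.13 (adjusted p = 0.177), and without the dexamethasone array B39 it was -0.47 and called (adjusted p = 0.0398).

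Fabp4, a fatty acid binding protein of adipocytes, macrophages and capillary endothelium, changed most. It read 10.26, 9.61, 10.20 and 11.29 in dexamethasone lungs, against 8.98, 7.55, 7.52 and 8.12 in vehicle lungs. The lowest treated lung lay above the highest vehicle lung, although both groups were spread, with SDs of 0.70 and 0.68. Fabp4 rose 4.93-fold (log2 change 2.30 ± 0.34, limma adjusted p = 6.59e-05) and 3.94-fold without B46. Its 4 probe sets were all called in lung, a bright pair at 2.30 and 2.36 and a dim pair at 0.58 and 0.49. The dim pair read 4.24 to 5.45 and 4.05 to 4.38 in dexamethasone lungs, against 4.16 to 4.53 and 3.58 to 3.86 in vehicle lungs. These levels are near or below the lower quartile of an array and were not shown to be above background. In cerebellum the brightest probe set lay at 3.81 to 4.44 with dexamethasone and 4.02 to 4.84 with vehicle, at the dim end of the array, with a change of -0.19 ± 0.34 (adjusted p = 0.877).

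Dgat2 catalyses the last step of triglyceride synthesis. It read 8.33, 7.90, 8.08 and 8.60 in dexamethasone lungs, against 7.05, 6.97, 7 and 7.17 in vehicle lungs. The groups were well apart and Dgat2 rose 2.27-fold (log2 change 1.18 ± 0.14, limma adjusted p = 7.37e-06) and 2.08-fold without B46, with the second probe set at 0.78 ± 0.15. It was the only one of the 10 that was lower in vehicle lung than in vehicle cerebellum, 2.33-fold, with vehicle cerebella at 8.02 to 8.42 and dexamethasone cerebella at 7.90 to 8.34. Treated lungs and cerebella were not tested against each other. The change in cerebellum was -0.16 ± 0.14 (adjusted p = 0.658).

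Plin2, perilipin 2, coats droplets in most cells and is the usual marker of lipofibroblasts. It read 12.00, 11.79, 12.06 and 12.67 in dexamethasone lungs, against 11.60, 11.57, 11.30 and 11.69 in vehicle lungs. The rise was 1.5-fold (log2 change 0.59 ± 0.16, limma adjusted p = 0.00956), the smallest of the 6, and 1.33-fold without B46. In cerebellum Plin2 read 9.06, 8.87, 8.72 and 8.91 with dexamethasone, against 9.50, 9.88, 9.45 and 9.46 with vehicle, and it fell 1.60-fold (log2 change -0.68 ± 0.16, adjusted p = 0.02). Plin4, a perilipin of adipocytes and muscle, read 4.79, 4.71, 4.99 and 6.22 in dexamethasone lungs, against 4.54 to 4.85 in vehicle lungs. The groups overlapped, with B46 far above the rest, and the change was 0.46 ± 0.24 (adjusted p = 0.159), or 0.11 without that array.

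Pnpla2, adipose triglyceride lipase, takes the first fatty acid off stored triglyceride. It read 9.70, 9.66, 10.02 and 10.91 in dexamethasone lungs, against 8.61, 8.76, 8.76 and 9.03 in vehicle lungs. It rose 2.43-fold (log2 change 1.28 ± 0.21, limma adjusted p = 0.000225) and 2-fold without B46. A second, dim probe set at 4.24 to 5.31 in dexamethasone lungs had 0.23 ± 0.17 (adjusted p = 0.37). Lipe, hormone-sensitive lipase, which acts on the next step, read 6.82, 6.71, 6.68 and 7.78 in dexamethasone lungs, against 6.58, 6.10, 6.66 and 6.83 in vehicle lungs. The groups overlapped, and the log2 change was 0.45 ± 0.22 (adjusted p = 0.133), or 0.19 without B46 (adjusted p = 0.443). A dimmer probe set that read 4.49 to 4.96 in dexamethasone lungs, against 3.95 to 4.33 in vehicle lungs, was called (0.54 ± 0.13, adjusted p = 0.00553). Averaged over both, with all arrays, Lipe was called (0.50, adjusted p = 0.0187). Of the 20 probe sets, 15 were called higher in lung when each was tested alone, as were 10.7% of all probe sets.

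In cerebellum 0 of the 10 genes rose and 2 fell, Plin2 and Lpl, where 2.84% of all genes were called higher and 1.97% lower. The median change was -0.19, against 0.01 over all genes. The groups of both did not overlap, as was so for 12.6% of all genes. Both calls were close to the threshold: Plin2 was lost without B49, B50 or B79 (adjusted p 0.0525 to 0.0757) and Lpl without B39, B79 or B80 (up to 0.0701). Without the lung array B46 the log2 changes stayed at -0.68 for Plin2 and -0.91 for Lpl. Their limma adjusted p was then 0.00252 and 0.00111, in a model where all groups share 1 estimate of the spread. The lung effect minus the cerebellum effect was above 0 for 6 genes and below 0 for none at the same threshold, against 9.85% and 11.5% of all genes. These were Fabp4 (2.50 ± 0.48, limma adjusted p = 0.00133), Lpl (2.17 ± 0.30, 0.000113), Pnpla2 (1.46 ± 0.30, 0.00252), Dgat2 (1.35 ± 0.20, 0.000156), Plin2 (1.27 ± 0.23, 0.000773) and Cd36 (1.09 ± 0.19, 0.000634). For Lpl and Plin2 both organs had a call, in opposite directions.

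**Figure D2:**
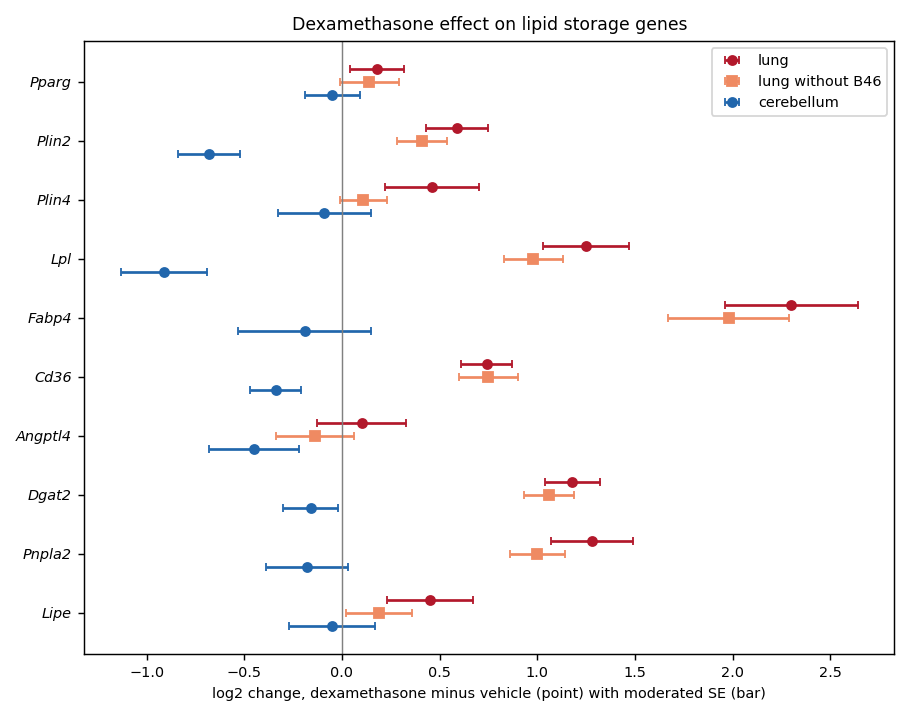
Log2 change, dexamethasone minus vehicle (horizontal axis, with moderated SE), of the 10 genes in lung (red), in lung without array B46 (orange squares) and in cerebellum (blue). Fabp4 has the largest change in lung, 2.30, and Lpl the lowest in cerebellum, -0.91.

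Lists of the same steps hold some of the 10 genes, so their counts in lung are given with and without them, beside the 15.7% of all genes called higher and 15.5% lower. Of 13 genes of triglyceride synthesis 8 rose and 0 fell, with a median of 0.46, and without Dgat2 7 of 12 rose. The acyltransferase Agpat2 read 9.52, 9.18, 9.47 and 9.71 in dexamethasone lungs, against 8.16, 8.38, 8.16 and 8.46 in vehicle lungs, and rose 2.26-fold. Lpin2, a phosphatidate phosphatase, rose 2.41-fold and the glycerol phosphate acyltransferase Gpat3 1.95-fold. None of the 13 was called in cerebellum, with a median of -0.05.

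Of 11 droplet proteins measured, 5 rose in lung and 0 fell, with 7 called higher without B46. Without Plin2 and Plin4, 4 of 9 rose and 0 fell. Fitm2, which helps droplets form at the endoplasmic reticulum, rose 1.89-fold (limma adjusted p = 1.6e-05), the perilipin of oxidative tissues Plin5 1.79-fold and the hypoxia-inducible droplet protein Hilpda 1.53-fold. Of 9 genes of lipolysis, 2 rose and 1 fell, and without Pnpla2 and Lipe 1 of 7 rose and 1 fell, shares near those of all genes. Abhd5, the coactivator of adipose triglyceride lipase, rose 1.70-fold (log2 change 0.76 ± 0.11), with dexamethasone lungs at 10.31 to 10.49 and vehicle lungs at 9.55 to 9.69, and the lysosomal lipase Lipa fell 1.26-fold in lung and 1.34-fold in cerebellum. The call of Lipa was lost without B28 in lung and without B49, B50, B52 or B79 in cerebellum.

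Of 20 genes of fatty acid release, uptake and binding measured, 7 rose in lung, among them Lpl, Fabp4 and Cd36, and 2 fell. Without the members of the 10, 4 of 16 rose and 2 fell, with a median of 0.21, against 0.05 over all genes. Fabp3, the heart-type binding protein, rose 2.51-fold and Slc27a3, of the fatty acid transport protein family, fell 2.10-fold. Gpihbp1, which anchors lipoprotein lipase to capillaries, was chosen after its values were seen: it read 11.57 to 11.86 in dexamethasone lungs and 11.01 to 11.16 in vehicle lungs and rose 1.47-fold (adjusted p = 0.00419). In cerebellum 2.84% of all genes were called higher and 1.97% lower. Of the 20, 1 rose there, Acsl3, an acyl-CoA synthetase, and 1 fell, Lpl. The call of Acsl3 there was lost without any of B39, B49, B50, B52, B79 or B80.

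**Figure D3:**
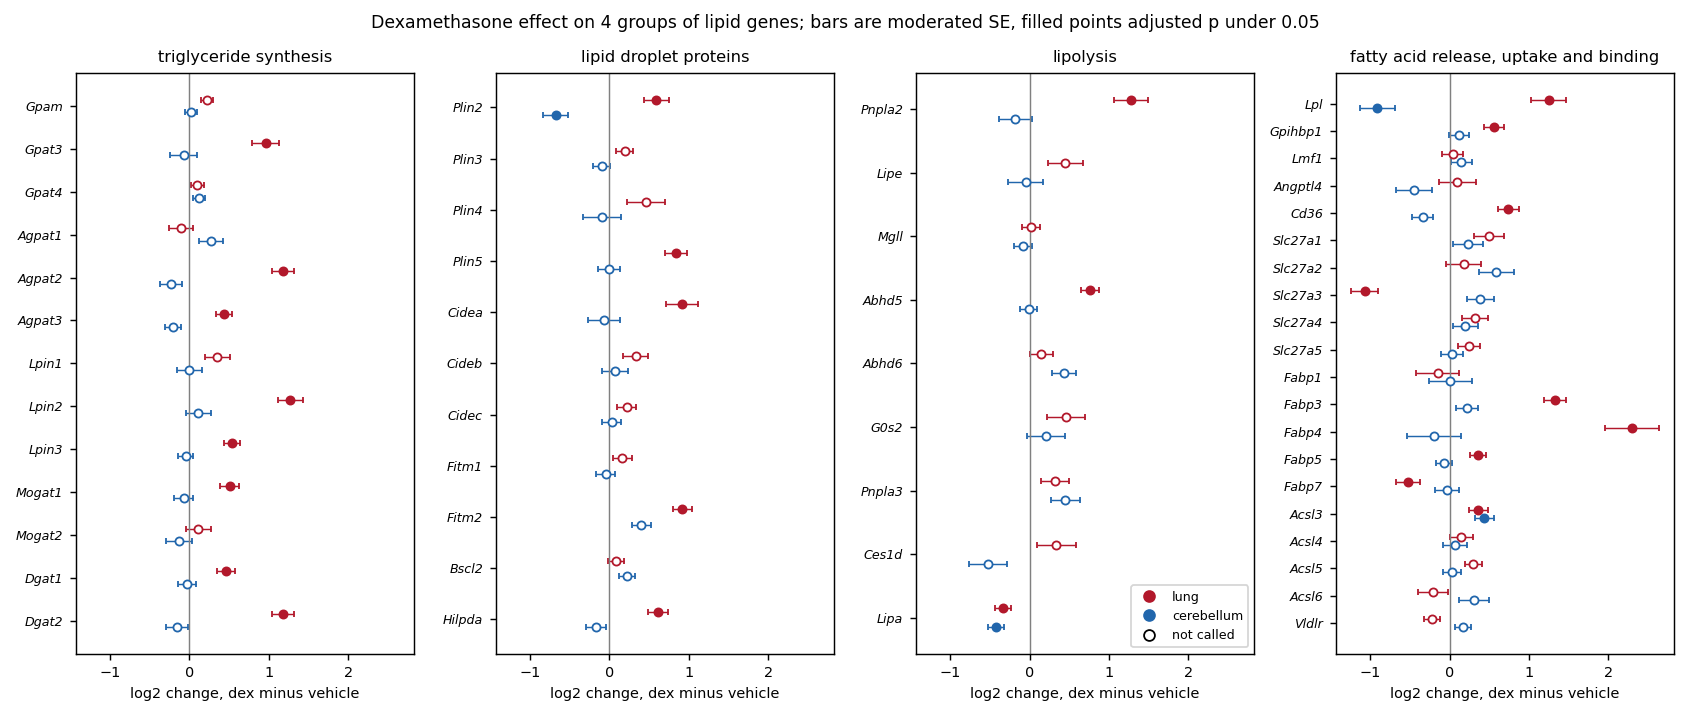
Log2 change, dexamethasone minus vehicle (horizontal axis, with moderated SE), for genes of triglyceride synthesis, droplets, lipolysis and fatty acid handling in lung (red) and cerebellum (blue). Filled points have an adjusted p under 0.05; in triglyceride synthesis 8 of 13 lung points and 0 of 13 cerebellum points are filled.

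Marker lists of the cells that could hold these genes were read beside them, where 15.7% of all genes were called higher in lung and 15.5% lower. Of 11 lung lipofibroblast markers, which include Plin2, Pparg and Lpl, 2 rose in lung, both of them among the 10 genes, and 1 fell. Such shares are near or below those of all genes. Without B46, 3 rose, among them G0s2, which is outside the 10 genes, and 1 fell. The marker that fell was Pth1r, the receptor for parathyroid hormone-related protein, through which epithelium is known to maintain lipofibroblasts. It read 7.04, 7.37, 7.15 and 6.51 in dexamethasone lungs, against 8.10, 8.52, 8.34 and 8.44 in vehicle lungs, and fell 2.52-fold (log2 change -1.33 ± 0.15, limma adjusted p = 5.89e-06). Tcf21 and Pdgfra, fibroblast genes chosen after their values were seen, had 0.10 ± 0.21 and -0.13 ± 0.18. The mean level of the list was 9.98 to 10.23 in dexamethasone lungs and 10.10 to 10.16 in vehicle lungs. Macrophages and cardiac muscle are also known to express Lpl and Plin2.

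Of 10 macrophage markers 8 rose and 1 fell in lung, or 6 and 1 without B46. Among the 8, Lyz2 was called in 5 of the 16 fits that left out an array. The call of Adgre1 was lost without B12, B14 or B19 and that of Mrc1 without B12, B22 or B46. The mean level of the list was 9.35 to 10.38 in dexamethasone lungs, highest in B46, and 8.16 to 8.40 in vehicle lungs. Chil3, a chitinase-like protein, the scavenger receptor Marco and Cd5l rose 25.5-fold, 9.12-fold and 6.13-fold (7.04-fold for Marco and 4.80-fold for Cd5l without B46), while Itgax fell 2.72-fold. With the mean macrophage level as a covariate among the lung arrays, an alternative chosen after the data were seen, none of the 6 was called higher. Log2 changes were then 0.73 ± 0.24 for Cd36, 0.38 ± 0.26 for Dgat2, -0.02 ± 0.64 for Fabp4, -0.29 ± 0.28 for Lpl, -0.41 ± 0.29 for Pnpla2 and -0.57 ± 0.25 for Plin2. Since the marker level does not overlap between treated and vehicle lungs, macrophage content and treatment cannot be told apart by this fit.

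Of 8 cardiac muscle markers 6 rose in lung and 0 fell, with mean levels of 8.66 to 9.37 in dexamethasone lungs, lowest in B46, and 8.02 to 8.28 in vehicle lungs. Tnnt2, cardiac troponin T, rose 3.98-fold. With their level as a covariate the changes of Fabp4, Lpl, Pnpla2, Dgat2, Plin2 and Cd36 were 3.22, 2.17, 2.34, 1.33, 1.13 and 0.74, and only Lpl and Pnpla2 were called. Of 10 endothelial markers 5 fell and 0 rose in lung, with the smallest adjusted p for Tie1, 1.94-fold lower. Among the 5 not called, Cldn5 and Pecam1 had log2 changes of -0.33 each. Eng, Ednrb and Egfl7 had 0.21, 0.10 and 0.07. The mean level of the list lay at 10.15 to 10.36 in dexamethasone lungs, against 10.54 to 10.82 in vehicle lungs. With that mean as a covariate, 0 of the 10 genes were called in lung, at changes from 0.34 ± 0.47 for Lpl to 1.54 ± 0.94 for Fabp4 among the 6. Neither the cardiac nor the endothelial level overlaps between treated and vehicle lungs, so these fits cannot tell such content and treatment apart.

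Adipocyte markers stayed dim in lung, at means of 4.67 to 4.91 with dexamethasone and 4.47 to 4.89 with vehicle, with 1 of 6 called, Cidea, 1.88-fold higher. The adipokine Adipoq had -0.34 ± 0.17 (limma adjusted p = 0.133), at 4.06 in dexamethasone and 4.40 in vehicle lungs on average. Of 5 alveolar type 2 markers 4 rose in lung, or 3 without B46, among them Sftpa1, 1.63-fold higher. The call of Napsa was lost without any of B28, B40, B46, B12, B14 or B19. That of Abca3 was lost without any of B28, B31, B40, B12 or B19. In cerebellum, where Plin2 and Lpl fell, 2.84% of all genes were called higher and 1.97% lower. There 2 of 10 macrophage markers, Cd68 and Lyz2, and 5 of 10 endothelial markers fell and none rose. The macrophage mean lay at 5.97 to 6.07 in dexamethasone cerebella, against 6.29 to 6.43 in vehicle cerebella, and the endothelial mean 7.36 to 7.49 in dexamethasone and 7.96 to 8.22 in vehicle cerebella, and their part in those falls and that of treatment cannot be told apart. Leaving out 1 array ended the call of Cd68 for 5 of the 16 arrays and that of Lyz2 for 5, and without B39 none of the 10 macrophage markers was called.

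**Figure D4:**
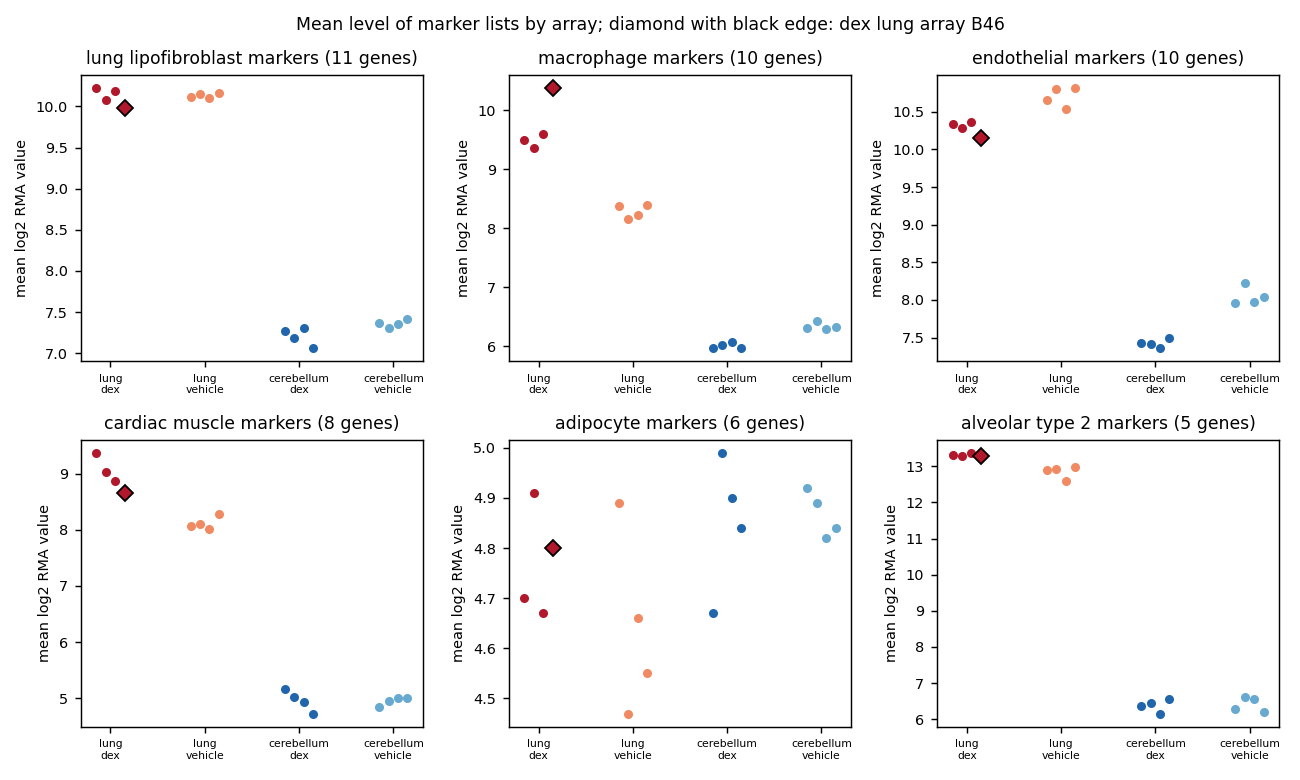
Mean log2 RMA value (vertical axis) of 6 marker lists on each array (points), for lung with dexamethasone, lung with vehicle, cerebellum with dexamethasone and cerebellum with vehicle; axes do not start at 0. The diamond with a black edge is array B46, highest for macrophage markers at 10.38 and lowest of the treated lungs for cardiac markers at 8.66.

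Patterns over the 16 arrays most like those of Pparg, Lpl and Fabp4 were sought by Pearson correlation across all genes. They were Myof, Acvrl1 and Lamb3 for Pparg (r = 0.992, 0.988 and 0.986), Plcg2, Tyrobp and Plek for Lpl (0.990, 0.989 and 0.989), and Liph, Lrg1 and Sirpb1a for Fabp4 (0.991, 0.991 and 0.990). All arrays of an organ share its tissue, and lung and cerebellum differ in each of these 3 genes, so the values are a description with no p.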

How the data were processed

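The authors deposited log2 values, 1 per probe set and array; the submitters' processing notes name RMA, without a version. RMA values exist for undetected transcripts too, and the method compresses differences of dim probe sets, so their folds may be understated. Values ran from 3.15 to 14.83. Of 45101 probe sets, 64 were controls and 34945 had 1 gene symbol, updated through the gene identifier. A gene was read from its brightest probe set over the 16 arrays, giving 18193 genes. The linear model (limma 3.58.1, R 4.3.3) had a mean per group, a shared spread with 12 residual degrees of freedom and Benjamini-Hochberg adjustment over all genes, called under 0.05. In simulated data with 200 of 18193 genes changed 2-fold in lung, 92.0% were called and 3.16% of calls were false. Its noise was drawn independently for each gene and array, so an array that stands apart in many genes, as B46 does, was not simulated. Far more genes were called in the lung data, 15.7% higher and 15.5% lower, so the rate of false calls there was not measured. The number of arrays, 4 per group, limits the precision. The labels give 1 hybridization date for the 16 arrays, and no batch test was made. No pair of arrays was identical.

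The genes and lists were chosen with earlier results of these data known. Named genes are the 10, for each list up to 4 called genes with the smallest adjusted p, and the 3 genes most correlated with Pparg, Lpl and Fabp4. Outside this rule, Gpihbp1, Tcf21, Pdgfra and Adipoq were chosen after their values were seen, and Sftpc and Zic1 check the tissues. Some genes whose calls changed when an array was left out are also named. Alternatives were the mean of probe sets, each probe set alone, only the brighter genes, renormalization by quantiles or cyclic loess, a fit to the compared groups alone, array weights, a trended prior variance, a covariate for Xist, and omission of each array in turn. Xist, which marks female tissue, spanned 5.67 to 10.86 in dexamethasone lungs and 5.53 to 11.93 in vehicle lungs, with means of 9.53 and 7.63. In cerebellum it spanned 5.52 to 11.4 with dexamethasone and 4.99 to 11.41 with vehicle, with means of 8.51 and 6.92. Each group thus appears to hold both sexes, in shares that may differ between treated and vehicle arrays. Covariates for macrophage, cardiac and endothelial markers and leaving out B46 and B39 together were chosen after seeing the data.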

Additional observations from a re-analysis of the deposited data

Results flagged for a closer look

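Each of the 10 genes was examined in each of the 4 groups for an array far from the other 3, by Dixon's test, and 4 of these 40 sets had one. Chance gives about 1 in 20. In dexamethasone lung B46 was such an array for Lpl, at 13.18 against 12.03 to 12.19 on the others, for Angptl4, at 11.17 against 10.13 to 10.30, and for Lipe, at 7.78 against 6.68 to 6.82. In vehicle cerebellum B79 was one for Plin2, at 9.88 against 9.45 to 9.50.

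The response to dexamethasone differed between lung and cerebellum, by the test of the difference itself, for 6 genes. The lung effect minus the cerebellum effect was 2.50 for Fabp4, 2.17 for Lpl, 1.46 for Pnpla2, 1.35 for Dgat2, 1.27 for Plin2 and 1.09 for Cd36 on the log2 scale.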

How the results depend on the processing

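The count of 6 genes called higher in lung was within 1.5 times of itself under every alternative without a marker covariate and whichever array was left out. It became 2 with cardiac muscle markers as a covariate, 0 with endothelial markers and 0 with macrophage markers, where 1, Plin4, was called lower (-1.50, limma adjusted p = 0.0479), these covariates having been chosen after seeing the data. With macrophage markers the lung changes of Plin2, Lpl, Fabp4 and Pnpla2 were also reversed in sign, at -0.57, -0.29, -0.02 and -0.41. In cerebellum the count of 2 called lower became 1 with the mean of all probe sets, where Lpl was not called (adjusted p = 0.105). It became 0 with macrophage markers and 0 with endothelial markers, where Plin2 was reversed at 0.32. Leaving out each array gave 0 to 2 there, with 0 without B79. In the difference between organs, Angptl4 was also called with probe sets averaged (0.64, adjusted p = 0.0373). Between vehicle organs the second probe set of Pnpla2 had -0.20 in place of 1.34. Beyond the marker covariates, whose values cannot be told apart from treatment where groups do not overlap, the cause of these changes was not tested. No paired analysis was possible because the groups share no replicate number.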

Other observations

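A list of PPARγ with other nuclear receptors and adipocyte factors, and a list of PPAR target genes, were also read in lung. Pparg itself was not called, and the activity of PPARγ or of any other PPAR was not measured. Of the 14 genes of the first list, 4 rose and 2 fell, where 15.7% of all genes were called higher and 15.5% lower. The share that fell is near that of all genes. Without B46, 3 rose and 2 fell. Ppargc1a, 1 of the 4 that rose, was called in 7 of the 16 fits that left out an array. Klf15, a glucocorticoid-induced Krüppel-like factor, read 9.09, 8.66, 8.79 and 10.30 in dexamethasone lungs, against 7.26, 7.23, 6.99 and 7.22 in vehicle lungs. It rose 4.10-fold (limma adjusted p = 1.93e-05), and 3.19-fold without B46. Cebpd, a factor of early adipocyte differentiation, rose 3.47-fold, and 2.95-fold without B46. Zfp423 and Ebf1, factors of preadipocytes, fell 3.28-fold and 3.27-fold, with dexamethasone lungs at 5.38 to 5.89 and vehicle lungs at 7.09 to 7.65 for Zfp423. None of the 14 was called in cerebellum.

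Of 12 PPAR target genes measured, 8 rose and 0 fell in lung, where 15.7% of all genes were called higher. Without B46, 7 rose and 0 fell. Without the members of the 10, 4 of 7 rose. Among those 4, the call of Acadl was lost without B14, B19 or B46 and that of Ucp3 without B12, B22, B28 or B31. In cerebellum 2 of the 12 fell and 0 rose, where 1.97% of all genes were called lower. Without B39, 4 of the 12 fell there. Pdk4, which holds pyruvate back from oxidation when fatty acids are used, read 8.34, 8.61, 9.21 and 11.79 in dexamethasone lungs, against 6.97, 6.22, 6.87 and 6.23 in vehicle lungs. It rose 7.54-fold (log2 change 2.91 ± 0.52, limma adjusted p = 0.000378), and 4.43-fold without B46 (log2 change 2.15). In cerebellum Pdk4 had -1.01 ± 0.52 (adjusted p = 0.347). It was called lower there in 1 of 16 fits that left out an array, the one without the lung array B46, in a model where all groups share 1 estimate of the spread.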
